A study of Mus musculus with 9 samples.

Results

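The comparison described here set AML12 cells given antagomir-treated osteocyte vesicles against AML12 cells given vehicle, with 3 libraries on each side out of 9 in the series. The 6 libraries were chosen by their labels, and every gene in the count tables was considered. AML12 is a mouse hepatocyte line that came from a mouse carrying a human transforming growth factor alpha transgene. The group OCY-EV+ANTA was given aged osteocytes' extracellular vesicles, first incubated for 30 min with antagomir-483-5p, at 2 µg/ml of vesicles. A further group, OCY-EV+ANTA-NC, received the same kind of vesicles after incubation with a control antagomir (3 libraries), and its values stand beside the others where they bear on a gene. The group Veh received phosphate-buffered saline. Cells of all 3 groups were held under free fatty acid conditions, so no group shows these cells without lipid load. For the clean-up after that incubation, one label field says ultracentrifugation and another ultrafiltration. No group received vesicles alone or an antagomir alone, so a difference from Veh joins vesicles, antagomir and the blocking of the microRNA, which cannot be told apart in this contrast. The contrast of OCY-EV+ANTA with OCY-EV+ANTA-NC differs, as labelled, in the antagomir, and its test is given for the genes named. Whether a group's 3 libraries are separate cultures is not stated, so p-values measure only the spread between libraries, which may be technical. RNA came from whole cultures, so fewer cells that express a gene and less RNA per cell cannot be told apart in any value below.

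Extracellular vesicles are membrane-bound particles that carry proteins, lipids and RNA, microRNAs among them, from one cell to another. A microRNA pairs through its seed, near its 5′ end, with sites in the 3′ untranslated region of messenger RNAs and lowers their stability or translation. An antagomir is a chemically modified oligonucleotide complementary to a microRNA, which it binds and blocks. The gene of miR-483 lies in an intron of Igf2, which encodes insulin-like growth factor 2. In hepatocytes, lipid load is handled by uptake, by synthesis under the SREBP transcription factors, by storage in droplets, by oxidation under PPAR-alpha and by secretion in lipoproteins.

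The mature microRNA that the antagomir is directed against is shown because its seed defines the sites counted next. It maps to chr7:142654968-142654989 on the minus strand (RefSeq, GRCm38.p6). Capitals mark the seed, bases 2 to 8, and the sequence of the antagomir itself was not used here.
mmu-miR-483-5p: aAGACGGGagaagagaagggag
The letters complementary to that seed, CCCGTCT, were looked for in the 3′ untranslated region of the transcript with the longest coding sequence of each gene (GENCODE M21, GRCm38). Of 11452 tested genes with such a region, 345 (3.01%) held the letters. They were held by 10 of 353 genes called higher in OCY-EV+ANTA (2.83%) and by 13 of 395 genes called lower (3.29%), so that the shares in both directions lay near that of all genes. The median log2 fold change was 0.01 over the 345 genes with the letters and 0.00 over the 11107 genes without them. Among the named genes described below, Timp2, Tfrc and Fam171b were called lower and hold 1 such site each, and Ern1 and Bhlhe40 were called higher and hold 1 each. Stretches around the site are shown for 1 fallen reported target and 1 risen gene, with the seed match in capitals.
Timp2: tccagcctctCCCGTCTtttgtatctg
Bhlhe40: tccccccaacCCCGTCTctgatgaata
A match is a description of these letters and not a site shown to be used.

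Of 9 genes reported elsewhere as targets of miR-483-5p, 6 were tested and 1 was called, lower, beside 3.46% of all genes called lower. Timp2, an inhibitor of matrix metalloproteinases, had 357, 334 and 337 CPM in OCY-EV+ANTA, 377, 372 and 365 CPM in OCY-EV+ANTA-NC and 402, 385 and 388 CPM in Veh. All 3 OCY-EV+ANTA libraries lay below all 3 Veh libraries (log2 fold change -0.18, SE 0.03, adjusted p = 0.00161), with OCY-EV+ANTA-NC in between, and the difference from OCY-EV+ANTA-NC was not called (adjusted p = 0.0897). The other 5 tested were not called: Notch3 had a log2 fold change of 0.99 (adjusted p = 0.163), Mapk3 0.11 (adjusted p = 0.105), Alcam -0.13 (adjusted p = 0.102), Arhgdia 0.06 (adjusted p = 0.342) and Srf -0.10 (adjusted p = 0.576). Igf1, Matn3 and Pdk4 did not pass the filter on low counts. The median of the 6 was -0.02, beside 0.00 over all genes tested.

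Total counts ran from 17298814 to 21737643 per library, and 11562 of 21959 listed genes passed the filter on low counts. Of 10 transcription factors of hepatocyte identity, 7 passed that filter and none of them was called, while Nr0b2 had 0 counts in every library. Among the 7, Hnf4a had 54.5 ± 8.30 CPM in OCY-EV+ANTA and 58.8 ± 2.31 CPM in Veh (SD, n = 3). CPM are counts scaled to a common library total. Nr1h4, the bile acid receptor, had 219 ± 0.922 CPM in OCY-EV+ANTA and 228 ± 6.68 CPM in Veh (SD, n = 3). Products of the adult hepatocyte were scarce or absent: Alb, the albumin gene, had 1.71, 4.74 and 3.70 CPM in OCY-EV+ANTA, 5.45, 7.28 and 4.84 CPM in OCY-EV+ANTA-NC and 5.39, 5.70 and 4.36 CPM in Veh, with overlapping groups (adjusted p = 0.154), and Cyp2e1 had at most 1 count. The bile duct keratin Krt19 reached 2681 ± 143 CPM in OCY-EV+ANTA and 2542 ± 21.6 CPM in Veh (SD, n = 3), whereas the bile duct marker Epcam had 0 counts. Of 12 osteocyte and osteoblast markers, 11 had at most 12 counts in any library and Sost, Dmp1 and Tnfsf11 had 0. The remaining marker was expressed in all groups, with a log2 fold change of 0.08, not called. All 12 together summed to 94.5 to 96.3 CPM in OCY-EV+ANTA, 92.1 to 106 CPM in OCY-EV+ANTA-NC and 89.4 to 92.3 CPM in Veh. Igf2, the host gene of miR-483, had 0 counts in every library, and its exons share 62.8% of their bases with another gene on the same strand. The summed level of 8 macrophage and leukocyte markers was 36.1 to 41.7 CPM in OCY-EV+ANTA, 34.1 to 41.4 CPM in OCY-EV+ANTA-NC and 34.4 to 35.9 CPM in Veh, with Clec4f at 0 and Ptprc at most at 5 counts. On the first principal component (22.6% of the variance) OCY-EV+ANTA scored -13.9 to -12.3, against 3.38 to 10.1 for the rest, and the second (17.6%) set the libraries numbered 1 of every group apart.

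Against Veh, 754 of 11562 genes (6.52%) were called in OCY-EV+ANTA, 354 higher (3.06%) and 400 lower (3.46%). A gene was called at an adjusted p under 0.05 in edgeR's quasi-likelihood test, adjusted over all genes by Benjamini and Hochberg. Changes were small: the median size of a call was 0.22 on the log2 scale, a fold of 1.17. A fold of 1.2 was reached by 263 of the calls, a fold of 1.5 by 44 (22 higher and 22 lower) and a fold of 2 by 17 (12 higher and 5 lower). In CPM, 743 of the 754 called genes had groups that did not overlap, beside 25.0% of all genes tested. The split between directions depended on the method. With library size in place of TMM, edgeR called 312 higher and 469 lower. A different test without TMM, limma on log2(FPKM + 1), called 188 higher and 344 lower. The number of calls also depended on single libraries: it was 361 without OCY-EV+ANTA 2, 459 without OCY-EV+ANTA 3, 322 without Veh 2 and 422 without Veh 3, but 872 without OCY-EV+ANTA 1. Without Veh 1 it was 503. In the same fit, OCY-EV+ANTA differed from OCY-EV+ANTA-NC in 1698 genes (14.7%), 878 higher (7.59%) and 820 lower (7.09%). OCY-EV+ANTA-NC differed from Veh in 118 (1.02%), 94 higher (0.813%) and 24 lower (0.208%). These comparisons share libraries with the first. Of 109 named genes that were called, 29 were not called in limma on log2(FPKM + 1) and 57 lost the call without at least 1 of the 6 libraries.

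**Figure D1:**
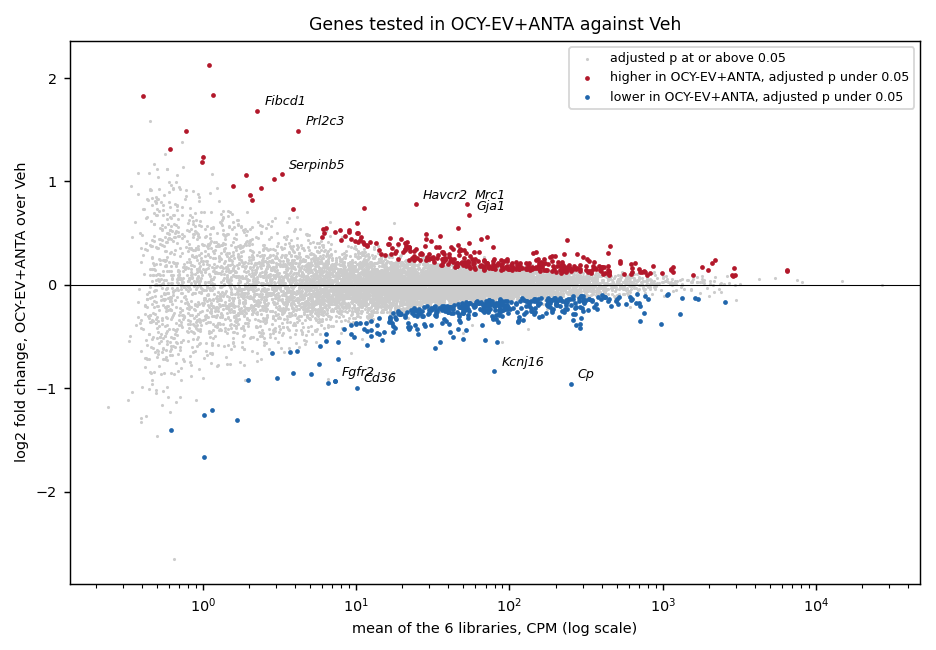
Log2 fold change of OCY-EV+ANTA over Veh (vertical) against the mean of the 6 libraries in CPM (horizontal, log scale), 1 point per gene tested. Red points are the 354 genes called higher, blue points the 400 called lower and grey points the rest; most calls lie within a fold of 1.5, and among the more abundant genes Cp and Kcnj16 stand apart below the others.

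Among called genes of at least 2 CPM on average, the largest falls included genes of copper and iron handling, fatty acid uptake, a growth factor receptor and a potassium channel. Cp encodes ceruloplasmin, the copper-carrying ferroxidase that hepatocytes secrete into plasma (chromosome 3, 19957054 to 20009145, plus strand, GRCm38). It had 177, 170 and 163 CPM in OCY-EV+ANTA 1 to 3, 353, 347 and 313 CPM in OCY-EV+ANTA-NC 1 to 3 and 332, 338 and 326 CPM in Veh 1 to 3. The OCY-EV+ANTA libraries held about the same level, all far below both other groups, which overlapped each other (log2 fold change -0.96, SE 0.04, adjusted p = 1.37e-11). Cd36 encodes a fatty acid translocase of the plasma membrane (chromosome 5, 17781690 to 17888801, minus strand). It had 6.44, 6.19 and 7.52 CPM in OCY-EV+ANTA, 13.7, 13.9 and 14.3 CPM in OCY-EV+ANTA-NC and 14.02, 14.1 and 12.3 CPM in Veh. Its OCY-EV+ANTA values lay below all 6 others (log2 fold change -0.99, SE 0.11, adjusted p = 6.95e-06). Kcnj16, an inward rectifier potassium channel subunit (chromosome 11, 110968033 to 111027968, plus strand), had 57.3, 56.1 and 57.4 CPM in OCY-EV+ANTA, 109, 103 and 93.2 CPM in OCY-EV+ANTA-NC and 101, 105 and 100 CPM in Veh. Here too OCY-EV+ANTA did not overlap either other group (log2 fold change -0.83, SE 0.05, adjusted p = 1.92e-09).

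The other 9 of the 12 largest falls lay at lower counts. Fgfr2, a fibroblast growth factor receptor, had 4.90, 4.86 and 5.21 CPM in OCY-EV+ANTA, 9.41, 9.06 and 8.02 CPM in OCY-EV+ANTA-NC and 8.75, 10.3 and 9.58 CPM in Veh (log2 fold change -0.93, SE 0.13, adjusted p = 1.22e-04), and OCY-EV+ANTA lay below every other library. Apon, which encodes apolipoprotein N, fell by 0.93 on the log2 scale (adjusted p = 1.59e-04), Akr1c14, a hydroxysteroid dehydrogenase, by 0.94 (adjusted p = 7.47e-04), and Palmd, which encodes palmdelphin, by 0.85 (adjusted p = 0.0029). Itga1, a collagen-binding integrin subunit, fell by 0.77 (adjusted p = 0.00383) and Sult1a1, a phenol sulfotransferase, by 0.72 (adjusted p = 0.0019). For all 6 of these, and for Cp, Cd36 and Kcnj16, the difference from OCY-EV+ANTA-NC was called as well, with adjusted p of at most 0.00354 (Sult1a1). Itga1 was not called in limma on FPKM. Fam171b had 4.39, 2.43 and 3.87 CPM in OCY-EV+ANTA, 8.42, 6.91 and 5.61 CPM in OCY-EV+ANTA-NC and 7.24, 5.98 and 6.48 CPM in Veh (log2 fold change -0.87, SE 0.19, adjusted p = 0.00923), and its call was lost without OCY-EV+ANTA 2 (adjusted p = 0.0623). Kifc3, a kinesin, and Slc18a1, a vesicular monoamine transporter, had log2 fold changes of -0.90 (adjusted p = 0.0134) and -0.65 (adjusted p = 0.0451). Neither was called against OCY-EV+ANTA-NC (adjusted p = 0.0817 and 0.101). Kifc3 lost its call without OCY-EV+ANTA 3 or without Veh 2, and Slc18a1 without any 1 of the 6 libraries. Exons of Kifc3 overlap a gene on the opposite strand over 27.5% of their bases, and with no stated strand setting reads of the pair could not be told apart.

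Within the same limit, the largest rises included a gap junction protein and 2 receptors known from immune cells. Gja1 encodes connexin 43, a gap junction channel (chromosome 10, 56377330 to 56402513, plus strand). It had 67.0, 65.6 and 68.4 CPM in OCY-EV+ANTA, 42.6, 41.3 and 45.9 CPM in OCY-EV+ANTA-NC and 45.7, 41.1 and 40.2 CPM in Veh. The OCY-EV+ANTA libraries agreed closely and stood clear of the other 6 (log2 fold change 0.67, SE 0.06, adjusted p = 3.58e-07). Havcr2, which encodes the immune receptor TIM-3, had 32.9, 30.1 and 29.6 CPM in OCY-EV+ANTA, 19.2, 20.4 and 21.2 CPM in OCY-EV+ANTA-NC and 18.9, 17.6 and 17.7 CPM in Veh (log2 fold change 0.78, SE 0.07, adjusted p = 7.10e-07). Mrc1, the mannose receptor known from macrophages and liver sinusoidal endothelium, had 83.2, 56.5 and 60.4 CPM in OCY-EV+ANTA, 45.4, 43.6 and 36.8 CPM in OCY-EV+ANTA-NC and 43.3, 36.3 and 37.9 CPM in Veh (log2 fold change 0.78, SE 0.11, adjusted p = 1.24e-04). For both genes every OCY-EV+ANTA library exceeded all others, and for Mrc1 the first stood above the other 2. Beside them, the leukocyte marker Ptprc had 5, 2 and 2 counts in OCY-EV+ANTA, 3, 0 and 0 in OCY-EV+ANTA-NC and 0 in each Veh library, and Cd68 had 9.23, 14.5 and 12.5 CPM in OCY-EV+ANTA, 7.15, 12.03 and 9.93 CPM in OCY-EV+ANTA-NC and 8.92, 9.75 and 10.6 CPM in Veh with overlapping groups. The macrophage markers Adgre1 and Itgam had at most 1 count in any library, and Csf1r at most 9.

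Fibcd1, an acetyl-binding receptor of the fibrinogen domain family (chromosome 2, 31813290 to 31846005, minus strand), showed the largest rise among called genes of at least 2 CPM on average, with 3.87, 3.47 and 3.01 CPM in OCY-EV+ANTA, 0.770, 0.809 and 1.29 CPM in OCY-EV+ANTA-NC and 1.23, 0.920 and 1.09 CPM in Veh. The lowest OCY-EV+ANTA library held more than any other library (log2 fold change 1.69, SE 0.24, adjusted p = 2.30e-04). Lgr6, a receptor for R-spondins in Wnt signalling, rose by 0.73 on the log2 scale (adjusted p = 0.0133), and its call was lost without Veh 2. H2-M9, a gene of the nonclassical major histocompatibility class I, rose by 0.75 (adjusted p = 0.00343), and Shc2, an adaptor of receptor tyrosine kinases, by 1.02 (adjusted p = 0.011). The call of Shc2 was lost without OCY-EV+ANTA 2, OCY-EV+ANTA 3 or Veh 2. Prl2c3, of the prolactin family, had 7.63, 6.19 and 4.67 CPM in OCY-EV+ANTA, 3.03, 2.37 and 2.26 CPM in OCY-EV+ANTA-NC and 2.58, 2.07 and 1.95 CPM in Veh (log2 fold change 1.49, adjusted p = 1.33e-04), but its near-identical neighbours can share its reads, so it is uncertain which copy changed. These 4 genes and Fibcd1, and Gja1, Havcr2 and Mrc1, were also called against OCY-EV+ANTA-NC. Serpinb5, which encodes maspin, Krt78, a keratin, Amz1, a metalloprotease, and Cenpu, a centromere protein, were called against Veh with log2 fold changes of 1.07, 0.93, 0.87 and 0.82 (adjusted p = 0.0138, 0.0122, 0.0241 and 0.0489), but not against OCY-EV+ANTA-NC (adjusted p = 0.0528, 0.266, 0.141 and 0.415). All 4 lost the call without Veh 2. It was also lost without OCY-EV+ANTA 3 for Serpinb5, without OCY-EV+ANTA 2 for Krt78, without any 1 library but OCY-EV+ANTA 1 for Amz1, and without OCY-EV+ANTA 1, OCY-EV+ANTA 2 or Veh 3 for Cenpu.

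Of the 17 calls that reached a fold of 2, 13 had a mean under 2 CPM. Chosen after their values were seen, the extremes were H2-M1, another class I gene, at 1.78 CPM in OCY-EV+ANTA and 0.418 CPM in Veh (log2 fold change 2.12, adjusted p = 0.00079), and Postn, which encodes the matrix protein periostin, at 0.481 CPM in OCY-EV+ANTA and 1.55 CPM in Veh (-1.66, adjusted p = 0.0058). At such levels a library holds few counts per gene.

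**Figure D2:**
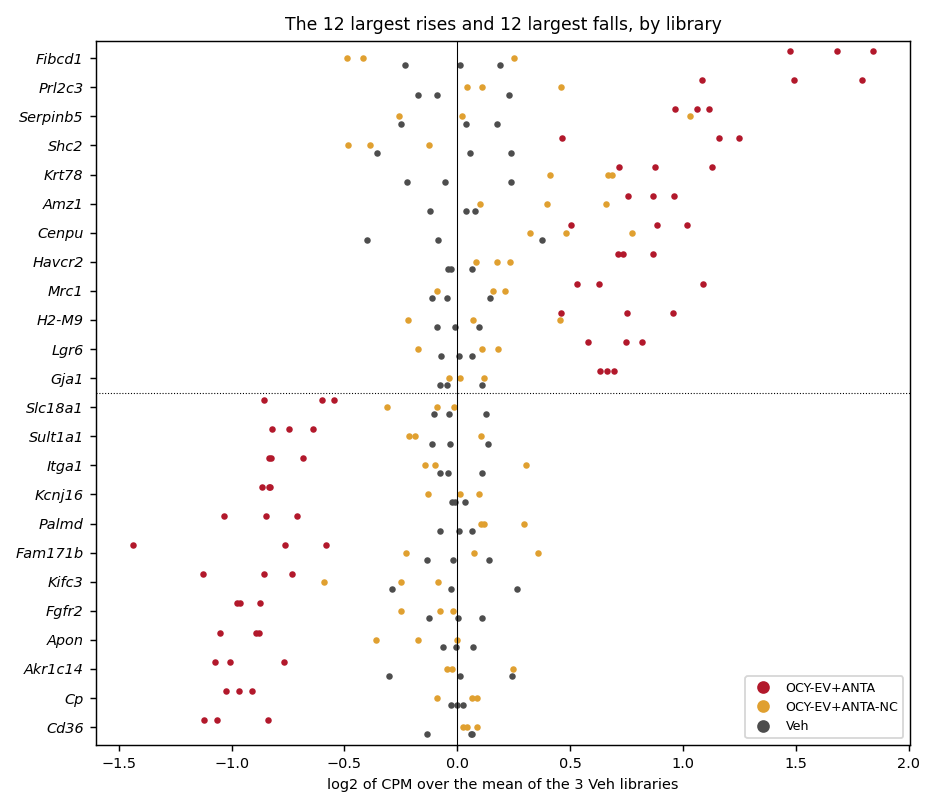
Level of the 12 largest rises (above the dotted line) and the 12 largest falls (below it) in each library, as log2 of CPM over the mean of the 3 Veh libraries. Red points are OCY-EV+ANTA, yellow OCY-EV+ANTA-NC and dark grey Veh, 3 libraries each; the genes were chosen so that OCY-EV+ANTA and Veh do not overlap.

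Most genes of cholesterol synthesis had higher levels in OCY-EV+ANTA than in Veh. This pathway turns acetyl-CoA through mevalonate, squalene and lanosterol into cholesterol, and its genes are classical targets of SREBP2. All 20 members of the list were tested, and 11 were called, all higher, with a median log2 fold change of 0.22 beside 0.00 over all genes, of which 3.06% were called higher. By sign, 18 members lay above 0 and 2 below, the lowest at -0.08, and neither of these 2 was called. Of the first steps, Hmgcs1, the synthase of HMG-CoA, had 314, 304 and 285 CPM in OCY-EV+ANTA, 254, 260 and 240 CPM in OCY-EV+ANTA-NC and 257, 253 and 231 CPM in Veh. OCY-EV+ANTA lay above both other groups (log2 fold change 0.29, SE 0.04, adjusted p = 3.74e-04).

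Between mevalonate and squalene, 4 of 6 genes were called. Mvd, mevalonate diphosphate decarboxylase, had 91.8, 90.4 and 82.1 CPM in OCY-EV+ANTA, 66.9, 65.2 and 65.9 CPM in OCY-EV+ANTA-NC and 69.2, 68.5 and 67.8 CPM in Veh (log2 fold change 0.37, SE 0.05, adjusted p = 3.77e-05), and its OCY-EV+ANTA libraries lay above the other 6. Pmvk, Fdps and Fdft1 rose by 0.37, 0.50 and 0.28 on the log2 scale, whereas Mvk and Idi1 at 0.19 and 0.25 were not called (adjusted p = 0.151 and 0.0623). Both genes from squalene to lanosterol were called. Lss, lanosterol synthase (chromosome 10, 76531588 to 76557138, plus strand), had 495, 489 and 475 CPM in OCY-EV+ANTA, 374, 392 and 378 CPM in OCY-EV+ANTA-NC and 389, 388 and 409 CPM in Veh (log2 fold change 0.31, SE 0.03, adjusted p = 5.42e-06), and Sqle, squalene epoxidase, rose by 0.19. From lanosterol to cholesterol 4 of 9 were called. Cyp51, lanosterol demethylase (chromosome 5, 4081145 to 4104746, minus strand), had 543, 514 and 474 CPM in OCY-EV+ANTA, 379, 400 and 354 CPM in OCY-EV+ANTA-NC and 397, 396 and 396 CPM in Veh (log2 fold change 0.37, SE 0.04, adjusted p = 2.71e-05). The 3 OCY-EV+ANTA libraries of Cyp51 spread more than the 3 Veh libraries but lay above all of them. Tm7sf2 rose by 0.32, Nsdhl by 0.25 and Msmo1 by 0.18, while Dhcr7, an enzyme of the last steps, was not called at 0.07 (adjusted p = 0.575). Pmvk, Fdps, Fdft1, Sqle and Msmo1 fall outside the rule for named genes and are named to complete the 11.

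In the cholesterol genes OCY-EV+ANTA-NC had a median log2 fold change of -0.07 over Veh. Against OCY-EV+ANTA-NC, 16 of the 20 were called higher in OCY-EV+ANTA, beside 7.59% of all genes higher in that contrast. The median log2 fold change of the list was 0.27 there. Leaving out any 1 of the 6 libraries gave 10 to 12 calls higher in the list, and 10 to 14 were called under other alternatives. That second range leaves out the limit on the fold and the fits without 1 replicate number in every group. The size differed among the OCY-EV+ANTA libraries. The median over the list of the log2 ratio to mean Veh was 0.31, 0.20 and 0.14 in OCY-EV+ANTA, -0.03, -0.02 and -0.07 in OCY-EV+ANTA-NC and 0.00, -0.01 and 0.02 in Veh.

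The promoter of Hmgcs1 is printed because it was the only one of 15 list members with a promoter sequence that held the sterol regulatory element letters searched, TCACCCCAC on either strand. They stand in 0.614% of 27025 genes with a promoter sequence of 300 bases (250 before to 50 after the gene's start). The CCAAT box, a site of NF-Y, which acts beside SREBP, was present in 14 of the 15, but also in 41.1% of all genes. The stretch lies at chr13:119690101-119690400, plus strand (RefSeq, GRCm38.p6), and capitals mark the element and the CCAAT boxes, the boxes on the other strand reading ATTGG. The 2 motifs do not overlap.
Hmgcs1 promoter: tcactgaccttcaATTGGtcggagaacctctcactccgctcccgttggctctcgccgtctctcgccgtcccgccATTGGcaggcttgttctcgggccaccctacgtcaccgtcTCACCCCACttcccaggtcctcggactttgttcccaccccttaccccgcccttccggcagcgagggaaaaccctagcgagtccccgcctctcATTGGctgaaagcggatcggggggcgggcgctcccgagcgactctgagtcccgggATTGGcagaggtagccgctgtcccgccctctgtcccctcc
No binding of a factor was measured in these libraries.

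**Figure D3:**
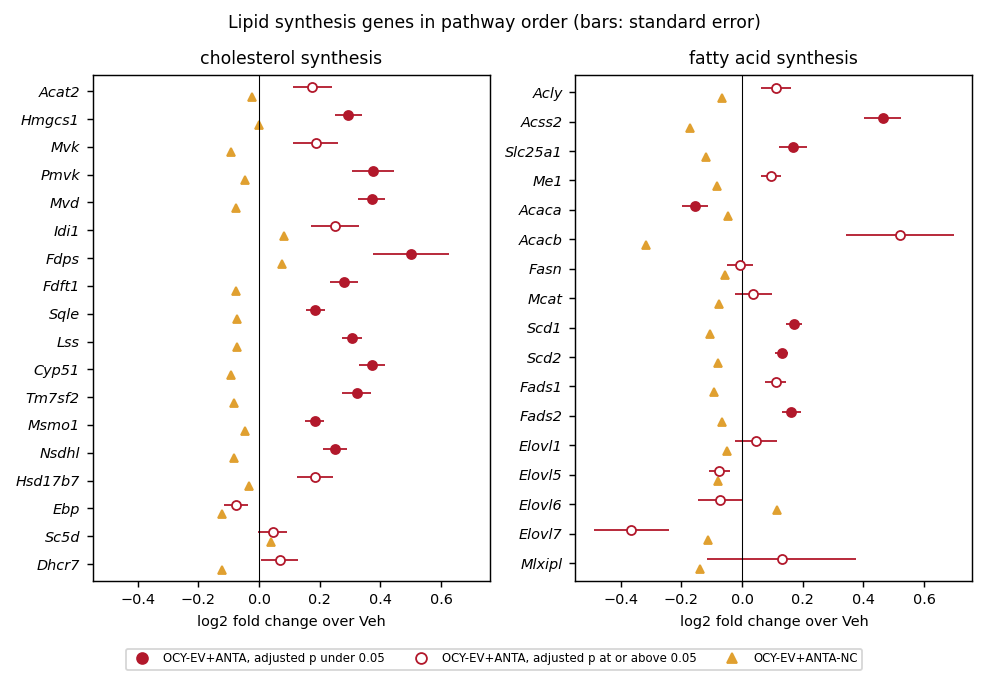
Log2 fold change over Veh of tested genes of cholesterol synthesis (left, 18 of 20 drawn) and fatty acid synthesis (right), in pathway order from top to bottom. Red circles with bars are OCY-EV+ANTA and its standard error, filled where the adjusted p is under 0.05; yellow triangles are OCY-EV+ANTA-NC. In cholesterol synthesis 11 of 18 circles are filled, all above 0, and most triangles lie at or below 0.

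Of 13 tested genes of SREBP control and LDL uptake, 1 was called (7.69%), a share near the 6.52% of all genes. Insig1, which retains the SREBP escort protein in the endoplasmic reticulum and is itself an SREBP target, had 159, 159 and 155 CPM in OCY-EV+ANTA, 130, 134 and 131 CPM in OCY-EV+ANTA-NC and 123, 129 and 133 CPM in Veh (log2 fold change 0.31, SE 0.04, adjusted p = 7.66e-05). Its OCY-EV+ANTA libraries stood above all others. Srebf2 and Srebf1, which encode the SREBP factors, had log2 fold changes of 0.07 (adjusted p = 0.204) and -0.02 (adjusted p = 0.858). Against OCY-EV+ANTA-NC, 5 of the 13 were called higher and none lower, beside 7.59% of all genes higher in that contrast. Srebf2 differed by 0.18 there (adjusted p = 3.47e-04).

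In fatty acid synthesis, 5 of 17 tested genes were called higher and 1 lower (all genes: 3.06% higher, 3.46% lower), with a median log2 fold change of 0.11. Acss2, which makes acetyl-CoA from acetate, had 88.6, 82.5 and 75.9 CPM in OCY-EV+ANTA, 51.2, 58.4 and 52.9 CPM in OCY-EV+ANTA-NC and 56.4, 61.6 and 62.1 CPM in Veh. The OCY-EV+ANTA libraries lay clearly above both other groups (log2 fold change 0.46, SE 0.06, adjusted p = 6.95e-05). The desaturases Scd1, Scd2 and Fads2, which put double bonds into fatty acids, rose by 0.17, 0.13 and 0.16 on the log2 scale (adjusted p = 5.13e-04, 0.00106 and 0.00335). Slc25a1, the citrate carrier, rose by 0.17 (adjusted p = 0.0335) and Acaca, acetyl-CoA carboxylase, fell by 0.16 (adjusted p = 0.0281). Without OCY-EV+ANTA 2 or without Veh 1 neither of these 2 was called, nor was either in limma on FPKM. Slc25a1 was also lost without OCY-EV+ANTA 1 or Veh 2, and Acaca without OCY-EV+ANTA 3 or Veh 3. Fasn, fatty acid synthase, was not called and had 193 ± 12.5 CPM in OCY-EV+ANTA and 196 ± 4.19 CPM in Veh (SD, n = 3; adjusted p = 0.953).

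Genes of fatty acid uptake and lipid droplets moved in both directions, with a median of 0.01. Of 28 tested, 3 were called higher and 4 lower (all genes: 3.06% higher, 3.46% lower). Besides Cd36, the fallen genes were Gpam, which starts glycerolipid assembly, at -0.22 (adjusted p = 0.0023), Pnpla2, the triglyceride lipase of droplets, at -0.24 (adjusted p = 0.00198), and Plin2, a droplet coat protein, at -0.18 (adjusted p = 0.00971). Plin2 had 200, 188 and 180 CPM in OCY-EV+ANTA, 211, 202 and 205 CPM in OCY-EV+ANTA-NC and 217, 217 and 212 CPM in Veh, and its call was lost without OCY-EV+ANTA 3 or Veh 2. Fabp4, a carrier of fatty acids best known from adipocytes and macrophages, had 54.5, 52.95 and 56.0 CPM in OCY-EV+ANTA, 40.2, 37.6 and 40.6 CPM in OCY-EV+ANTA-NC and 37.1, 37.7 and 37.5 CPM in Veh. The OCY-EV+ANTA libraries agreed closely and stood above the other 6 (log2 fold change 0.55, SE 0.05, adjusted p = 8.23e-07). Fabp5, of the same family, rose by 0.21 (adjusted p = 0.00948) on the log2 scale, and Lpin1, a phosphatidate phosphatase, by 0.23 (adjusted p = 0.0107), with Lpin1 named to complete the count. The changes of Cd36, Fabp4, Fabp5, Gpam and Lpin1 were also called against OCY-EV+ANTA-NC, and those of Plin2 and Pnpla2 were not (adjusted p = 0.122 and 0.0523).

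Of 27 tested genes of PPAR-alpha and fatty acid oxidation, 1 was called, lower, beside 3.46% of all genes lower, with a median of -0.06. Acot1, an acyl-CoA thioesterase, had 38.1, 39.8 and 36.0 CPM in OCY-EV+ANTA, 44.6, 42.1 and 41.3 CPM in OCY-EV+ANTA-NC and 42.2, 45.3 and 45.6 CPM in Veh (log2 fold change -0.22, adjusted p = 0.0244), and lost the call without OCY-EV+ANTA 3, Veh 2 or Veh 3. Cpt1a, the gate of mitochondrial import, had 186 ± 6.94 CPM in OCY-EV+ANTA and 193 ± 3.33 CPM in Veh (SD, n = 3; adjusted p = 0.604), and Ppara a log2 fold change of -0.05 (adjusted p = 0.624). Pdk4, Fgf21, Cyp4a10 and Cyp4a14, classical targets of PPAR-alpha in liver, did not pass the filter on low counts. Of 20 lipoprotein and efflux genes only 8 were tested. Lipc, hepatic lipase, was called at 1.42, 1.39 and 1.40 CPM in OCY-EV+ANTA, 0.605, 0.486 and 0.514 CPM in OCY-EV+ANTA-NC and 0.505, 0.644 and 0.631 CPM in Veh (log2 fold change 1.23, adjusted p = 0.0153), a low level whose call was lost without OCY-EV+ANTA 2, Veh 1 or Veh 2. Apob, the scaffold of secreted lipoproteins, had 107 ± 16.4 CPM in OCY-EV+ANTA and 111 ± 2.28 CPM in Veh (SD, n = 3; adjusted p = 0.784).

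RNA of several plasma proteins of the acute phase response fell. Of 16 tested genes of that list 4 were called, all lower, beside 3.46% of all genes called lower. The median log2 fold change was -0.16, and the 4 were all among the 10 tested plasma proteins (median -0.60). Of these 10 genes, 9 lay below 0 and 1 above, at 0.56 and not called. Over the 16, the median log2 ratio to mean Veh was -0.40, -0.14 and -0.12 in OCY-EV+ANTA, 0.02, 0.03 and 0.08 in OCY-EV+ANTA-NC and -0.01, 0.04 and 0.01 in Veh, so the first OCY-EV+ANTA library lay lowest. Besides Cp, Lbp, which hands lipopolysaccharide to its receptor (chromosome 2, 158306493 to 158332852, plus strand), had 784, 879 and 879 CPM in OCY-EV+ANTA, 1034, 1076 and 1111 CPM in OCY-EV+ANTA-NC and 1072, 1132 and 1127 CPM in Veh. OCY-EV+ANTA lay below both other groups (log2 fold change -0.38, SE 0.04, adjusted p = 3.57e-06). Orm1, an orosomucoid that binds drugs and lipids in plasma, had 64.8, 68.0 and 68.4 CPM in OCY-EV+ANTA, 112, 100 and 111 CPM in OCY-EV+ANTA-NC and 96.9, 104 and 95.1 CPM in Veh, again with OCY-EV+ANTA lowest (log2 fold change -0.55, SE 0.05, adjusted p = 7.20e-07). Its close copy Orm2 had 3.02, 3.18 and 3.38 CPM in OCY-EV+ANTA, 5.83, 4.10 and 5.86 CPM in OCY-EV+ANTA-NC and 5.72, 4.78 and 4.59 CPM in Veh (log2 fold change -0.64, adjusted p = 0.0329). Reads can be shared between the copies, and the call of Orm2 was lost without any 1 library. All 4 differed from OCY-EV+ANTA-NC. Hpx and Hp, which bind heme and hemoglobin, had log2 fold changes of -0.77 (adjusted p = 0.0737) and -0.76 (adjusted p = 0.127) and were not called. The receptors and regulators of the response were not called, with Stat3 at -0.05, Socs3 at -0.09 and Cebpb at -0.08 (adjusted p = 0.614, 0.735 and 0.593).

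The inflammation list had 2 calls lower and 1 higher among 14 tested genes (all genes: 3.46% lower, 3.06% higher), and both lower calls were among its 5 tested chemokines and cytokines. Csf1, the growth factor of macrophages, had 28.9, 24.2 and 24.7 CPM in OCY-EV+ANTA, 36.5, 38.7 and 39.2 CPM in OCY-EV+ANTA-NC and 40.3, 39.5 and 40.0 CPM in Veh. The OCY-EV+ANTA libraries lay well below the other 6 (log2 fold change -0.61, SE 0.06, adjusted p = 4.93e-06). Ccl2, a monocyte chemokine, had 6.84, 9.60 and 7.46 CPM in OCY-EV+ANTA, 12.8, 15.6 and 12.1 CPM in OCY-EV+ANTA-NC and 9.93, 12.2 and 11.7 CPM in Veh (log2 fold change -0.50, adjusted p = 0.0304), with OCY-EV+ANTA lowest and OCY-EV+ANTA-NC highest on average, and its call was lost without OCY-EV+ANTA 1, OCY-EV+ANTA 3, Veh 2 or Veh 3. Nfkb2, a subunit of NF-kappaB, rose by 0.20 (adjusted p = 0.0165), a call lost without OCY-EV+ANTA 2, Veh 1 or Veh 2. In the interferon list, Ifit2, an antiviral protein, was the single call among 15 tested, at 12.6, 12.2 and 13.7 CPM in OCY-EV+ANTA, 18.5, 17.3 and 18.5 CPM in OCY-EV+ANTA-NC and 17.8, 19.0 and 16.4 CPM in Veh (log2 fold change -0.46, SE 0.09, adjusted p = 0.00233). Of the 12 tested hepatocyte identity genes, Ttr, the carrier of thyroxine and of retinol-binding protein, was called at 0.741, 0.578 and 0.752 CPM in OCY-EV+ANTA, 2.37, 1.40 and 1.44 CPM in OCY-EV+ANTA-NC and 1.74, 1.61 and 1.49 CPM in Veh (log2 fold change -1.21, adjusted p = 0.0223), and its call was lost without any 1 library but OCY-EV+ANTA 1. Csf1, Ccl2, Ifit2 and Ttr also differed from OCY-EV+ANTA-NC in the same direction.

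The integrated stress response raises ATF4 and its targets when translation initiation factor eIF2 is phosphorylated, as after amino acid shortage or stress of the endoplasmic reticulum. Of 30 tested genes, 10 were called higher and 1 lower (all genes: 3.06% higher, 3.46% lower), with a median of 0.10. Trib3, a pseudokinase induced by ATF4 and CHOP (chromosome 2, 152337422 to 152344032, minus strand), had 32.1, 38.9 and 35.2 CPM in OCY-EV+ANTA, 24.5, 28.1 and 28.5 CPM in OCY-EV+ANTA-NC and 25.8, 27.1 and 26.5 CPM in Veh. OCY-EV+ANTA lay above both other groups (log2 fold change 0.42, SE 0.07, adjusted p = 0.00117). Atf3, a transcription factor of the same response, had 22.3, 25.2 and 23.7 CPM in OCY-EV+ANTA, 14.3, 18.2 and 16.7 CPM in OCY-EV+ANTA-NC and 17.7, 17.7 and 18.8 CPM in Veh (log2 fold change 0.41, SE 0.08, adjusted p = 0.00578). Ddit3, which encodes CHOP, rose by 0.44 (adjusted p = 0.0198) on the log2 scale and the stress protein gene Nupr1 by 0.53 (adjusted p = 0.0334). Atf4 itself had 290 ± 16.2 CPM in OCY-EV+ANTA and 273 ± 3.33 CPM in Veh (SD, n = 3; adjusted p = 0.204), and at the level of RNA was not called.

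Of 12 tested enzymes and transporters of amino acids in the list, 6 were called (5 higher, 1 lower), with a median of 0.14, and 4 of its 12 regulators, with a median of 0.14 as well. Asns, asparagine synthetase, had 381, 436 and 404 CPM in OCY-EV+ANTA, 332, 366 and 360 CPM in OCY-EV+ANTA-NC and 375, 354 and 352 CPM in Veh (log2 fold change 0.18, adjusted p = 0.017), and Aars, alanyl-tRNA synthetase, had 221, 258 and 237 CPM in OCY-EV+ANTA, 201, 213 and 213 CPM in OCY-EV+ANTA-NC and 210, 202 and 217 CPM in Veh (0.20, adjusted p = 0.0172). In both genes OCY-EV+ANTA 2 was highest and OCY-EV+ANTA 1 lowest of the group. Aldh18a1, of proline synthesis, rose by 0.21 (adjusted p = 0.00857), Slc7a11, the cystine importer, by 0.30 (adjusted p = 0.00976), Mthfd2, of mitochondrial folate metabolism, by 0.19 (adjusted p = 0.0351) and Slc7a5, an amino acid transporter, by 0.18 (adjusted p = 0.0258), while Psat1, of serine synthesis, fell by 0.13 (adjusted p = 0.0291). Ddit3, Nupr1, Mthfd2, Slc7a5 and Psat1 are named to complete the counts. The count of 10 depended on the libraries: it was 2 without OCY-EV+ANTA 2, 3 without Veh 2, 6 without OCY-EV+ANTA 3 or Veh 1, 8 without Veh 3 and 12 without OCY-EV+ANTA 1. In limma on log2(FPKM + 1) it was 4. Asns, Aars, Aldh18a1 and Slc7a11 were all lost without OCY-EV+ANTA 2, the first 3 also without Veh 2, and Asns without Veh 3. Over the list the median log2 ratio to mean Veh was 0.03, 0.20 and 0.11 in OCY-EV+ANTA, -0.10, 0.02 and -0.03 in OCY-EV+ANTA-NC and -0.01, -0.01 and 0.03 in Veh, so OCY-EV+ANTA 1 lay within the range of the Veh libraries. Against OCY-EV+ANTA-NC 14 of the 30 were called higher, beside 7.59% of all genes higher in that contrast.

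The promoters of Nupr1 and Aars are printed because they were 2 of 3 among 26 list members with a promoter sequence that held TGATGCAAT, a form of the C/EBP-ATF response element that ATF4 binds, searched on both strands. Pycr1, which was not called, held it too, and so did 0.222% of all 27025 genes with a promoter sequence. Capitals mark the letters, which read ATTGCATCA on the strand shown. The stretches lie at chr7:126625421-126625720, minus strand and chr8:111033592-111033891, plus strand (RefSeq, GRCm38.p6).
Nupr1 promoter: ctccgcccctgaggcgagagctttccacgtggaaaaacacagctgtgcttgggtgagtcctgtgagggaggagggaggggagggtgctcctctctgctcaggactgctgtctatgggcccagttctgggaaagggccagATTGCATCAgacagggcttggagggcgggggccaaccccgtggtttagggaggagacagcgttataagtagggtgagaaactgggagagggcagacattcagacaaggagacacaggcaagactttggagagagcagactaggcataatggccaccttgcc
Aars promoter: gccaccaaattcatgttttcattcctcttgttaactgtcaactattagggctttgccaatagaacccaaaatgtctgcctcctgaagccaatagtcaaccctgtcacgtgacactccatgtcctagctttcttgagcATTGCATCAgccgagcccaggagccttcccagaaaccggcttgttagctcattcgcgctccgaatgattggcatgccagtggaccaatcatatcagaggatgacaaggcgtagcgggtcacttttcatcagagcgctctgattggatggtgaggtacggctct
The letters describe these promoters and no more.

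In the list of endoplasmic reticulum chaperones 2 of 18 tested genes were called, both higher (all genes: 3.06% higher, 3.46% lower). Both belong to the sensor branch. Xbp1, a transcription factor of the unfolded protein response, had 106, 118 and 111 CPM in OCY-EV+ANTA, 97.1, 96.2 and 99.6 CPM in OCY-EV+ANTA-NC and 97.6, 97.1 and 97.8 CPM in Veh (log2 fold change 0.21, adjusted p = 0.00616). Ern1, which encodes the sensor IRE1, rose by 0.22 on the log2 scale (adjusted p = 0.046). The 12 chaperones themselves had a median of -0.10. Xbp1 lost its call without OCY-EV+ANTA 2, and Ern1 without OCY-EV+ANTA 2, OCY-EV+ANTA 3, Veh 2 or Veh 3.

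Genes of mitosis were called higher against Veh, and the vesicles with control antagomir lay above Veh as well. Of 22 tested genes 7 were called, all higher, beside 3.06% of all genes, with the median at 0.25 for OCY-EV+ANTA and 0.23 for OCY-EV+ANTA-NC over Veh. Against OCY-EV+ANTA-NC 1 was called, lower (all genes in that contrast: 7.59% higher, 7.09% lower), with the median at 0.05. Ccna2, which encodes cyclin A2, had 42.2, 39.4 and 41.6 CPM in OCY-EV+ANTA, 44.7, 35.8 and 37.1 CPM in OCY-EV+ANTA-NC and 36.2, 31.9 and 31.2 CPM in Veh (log2 fold change 0.32, adjusted p = 0.0121). Both vesicle groups lay near each other and mostly above Veh. Cenpe, a motor protein of the kinetochore, had 55.9, 48.4 and 51.2 CPM in OCY-EV+ANTA, 57.0, 46.3 and 49.5 CPM in OCY-EV+ANTA-NC and 44.4, 41.4 and 38.9 CPM in Veh (0.33, adjusted p = 0.00763), and its difference from OCY-EV+ANTA-NC was 0.06 (adjusted p = 0.652). Kif20a, a kinesin of cytokinesis, had 27.2, 23.9 and 23.0 CPM in OCY-EV+ANTA, 26.5, 22.6 and 21.2 CPM in OCY-EV+ANTA-NC and 20.03, 18.8 and 16.8 CPM in Veh (0.42, adjusted p = 0.0072), with 29.3% of its exon bases overlapped by a gene on the opposite strand. Knl1, a scaffold of the kinetochore, rose by 0.40 (adjusted p = 0.0198), Top2a, topoisomerase II alpha, by 0.28 (adjusted p = 0.0306), Tpx2, a spindle assembly factor, by 0.28 (adjusted p = 0.0245) and Cenpf, named to complete the 7, by 0.33 (adjusted p = 0.0453).

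These counts depended on the libraries. The 7 mitosis calls became 1 without Veh 3, 2 without Veh 2, 3 without OCY-EV+ANTA 1, 4 without OCY-EV+ANTA 2 or OCY-EV+ANTA 3 and 9 without Veh 1. In limma on log2(FPKM + 1) there was 1, with no filter on low counts there were 12, and without the libraries numbered 1 of every group 11. Within every group the library numbered 1 was highest: over the list the median log2 ratio to mean Veh was 0.36, 0.15 and 0.19 in OCY-EV+ANTA, 0.45, 0.10 and 0.20 in OCY-EV+ANTA-NC and 0.12, -0.01 and -0.12 in Veh. Ccna2 lost its call without Veh 2 or Veh 3, Cenpe without Veh 3, Knl1 without OCY-EV+ANTA 1, Veh 2 or Veh 3, and Top2a and Tpx2 without any 1 library but Veh 1. Kif20a alone among the 6 named by the rule kept its call without any 1 library. DNA replication genes, 20 tested, had 0 calls in edgeR (all genes: 3.06% higher, 3.46% lower). There, 3 higher and 2 lower had an unadjusted p under 0.05. DESeq2 called 1 higher and 0 lower, limma 0 higher and 1 lower. Their median was 0.04, with Mcm3, a subunit of the replicative helicase, at 0.41 (adjusted p = 0.0575) and Rrm2, of ribonucleotide reductase, at -0.08 (adjusted p = 0.0647). In the p53 list of 18, 1 gene was called higher and 1 lower, beside 3.06% and 3.46% of all genes. Gadd45a, a growth arrest gene that ATF4 also induces, rose by 0.29 (adjusted p = 0.0107) and Perp, a desmosome protein, fell by 0.11 (adjusted p = 0.0198). Gadd45a lost its call without OCY-EV+ANTA 2 and Perp without Veh 1 or Veh 2.

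**Figure D4:**
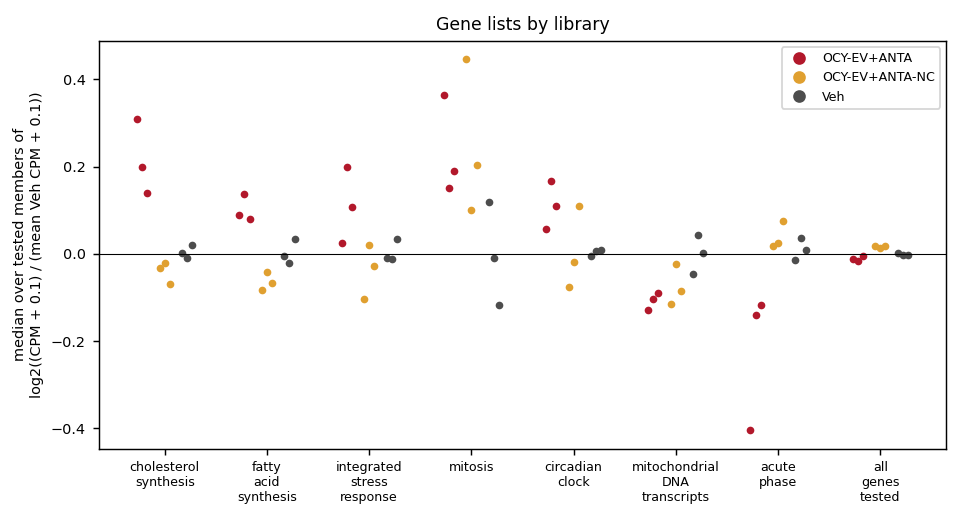
Median over the tested members of 7 gene lists and of all genes, per library, of log2((CPM + 0.1) / (mean Veh CPM + 0.1)). Red points are OCY-EV+ANTA, yellow OCY-EV+ANTA-NC and dark grey Veh, in each case libraries 1 to 3 from left to right. In cholesterol synthesis the 3 red points lie above all others, whereas in mitosis red and yellow overlap and library 1 is highest in each group.

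Detoxification genes moved in both directions. Of 26 tested genes of the NRF2 and glutathione list 5 were called higher and 3 lower (all genes: 3.06% higher, 3.46% lower). The median was 0.00, and the transcription factor gene Nfe2l2 had a log2 fold change of 0.00 (adjusted p = 0.999). Mgst1, a membrane-bound glutathione transferase, had 98.8, 104 and 98.7 CPM in OCY-EV+ANTA, 134, 130 and 125 CPM in OCY-EV+ANTA-NC and 125, 136 and 126 CPM in Veh. The OCY-EV+ANTA libraries lay below the other 6 (log2 fold change -0.35, SE 0.05, adjusted p = 6.95e-05). Gsta1, a cytosolic transferase, had 45.6, 47.3 and 47.7 CPM in OCY-EV+ANTA, 37.8, 33.9 and 35.8 CPM in OCY-EV+ANTA-NC and 39.8, 31.6 and 38.7 CPM in Veh (log2 fold change 0.37, SE 0.07, adjusted p = 0.00276), with OCY-EV+ANTA highest. Gstm2 and Gstm1, of another class, fell by 0.28 and 0.23 on the log2 scale (adjusted p = 0.00323 and 0.00319). The Gsta and Gstm families hold similar copies, which can share reads. Abcc1, an exporter of glutathione conjugates, rose by 0.16 (adjusted p = 0.00544) and Sqstm1, the autophagy receptor p62, by 0.18 (adjusted p = 0.00104). Slc7a11 is given above, and Gstp1, named to complete the 5, rose by 0.18 (adjusted p = 0.0308).

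In iron handling, Cp apart, Tfrc, the transferrin receptor, had 87.1, 79.3 and 88.2 CPM in OCY-EV+ANTA, 118, 118 and 108 CPM in OCY-EV+ANTA-NC and 96.5, 103 and 98.1 CPM in Veh (log2 fold change -0.22, adjusted p = 0.0102). OCY-EV+ANTA lay lowest and OCY-EV+ANTA-NC highest, with a difference between them of -0.40 (adjusted p = 1.51e-05). Ncoa4, the receptor that carries ferritin to lysosomes, rose by 0.21 (adjusted p = 0.00619). Tfrc lost its call without OCY-EV+ANTA 2 or Veh 2 and Ncoa4 without Veh 2. Of 28 autophagy and lysosome genes 2 were called (7.14%), a share near the 6.52% of all genes: Sqstm1, and Lipa, the lysosomal acid lipase that frees cholesterol from its esters, at 122, 126 and 127 CPM in OCY-EV+ANTA, 150, 146 and 144 CPM in OCY-EV+ANTA-NC and 153, 147 and 149 CPM in Veh (log2 fold change -0.25, SE 0.04, adjusted p = 4.21e-04).

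Genes of the TGF-beta response had 3 calls higher and 3 lower among 19 tested (all genes: 3.06% higher, 3.46% lower). Vim, which encodes vimentin, rose by 0.16 (adjusted p = 2.70e-04), and Fn1, fibronectin, by 0.18 (adjusted p = 0.00648). Thbs1, which encodes thrombospondin 1, had 44.8, 39.3 and 40.4 CPM in OCY-EV+ANTA, 50.4, 61.2 and 53.1 CPM in OCY-EV+ANTA-NC and 52.7, 53.6 and 54.5 CPM in Veh, with OCY-EV+ANTA below the rest (log2 fold change -0.36, SE 0.07, adjusted p = 0.00206). Tgfbr1, the type I receptor, fell by 0.20 on the log2 scale (adjusted p = 0.011), and Ltbp1, which holds latent TGF-beta in the matrix, by 0.14 (adjusted p = 0.0258). Tgfbr1 lost its call without OCY-EV+ANTA 2 or Veh 2, and Ltbp1 without OCY-EV+ANTA 1, OCY-EV+ANTA 2, Veh 2 or Veh 3. These 5 were called in the same direction against OCY-EV+ANTA-NC. Of 25 tested genes in the list of collagens, laminins and integrins only Itga2 was called (-0.10, adjusted p = 0.0425), and it was lost without any 1 library. The integrin gene Itga1, given above among the largest falls, is not in that list.

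The line's TGF-alpha transgene acts through the EGF receptor, whose pathway had 1 call higher and 2 lower among 21 tested genes (all genes: 3.06% higher, 3.46% lower). Dusp6, a phosphatase that is a feedback target of ERK signalling, had 153, 135 and 130 CPM in OCY-EV+ANTA, 174, 191 and 172 CPM in OCY-EV+ANTA-NC and 164, 184 and 174 CPM in Veh. OCY-EV+ANTA lay below both other groups (log2 fold change -0.31, SE 0.06, adjusted p = 0.00198). Egfr, the receptor, had 67.0, 60.6 and 68.7 CPM in OCY-EV+ANTA, 81.1, 80.5 and 84.6 CPM in OCY-EV+ANTA-NC and 75.6, 73.7 and 73.8 CPM in Veh (log2 fold change -0.18, adjusted p = 0.0276), and Erbb3, its relative, rose by 0.16 (adjusted p = 0.0255). Both calls were lost without OCY-EV+ANTA 2, Veh 2 or Veh 3, that of Egfr also without Veh 1 and that of Erbb3 without OCY-EV+ANTA 3. In insulin and IGF signalling Igfbp4, a binding protein of insulin-like growth factors, fell by 0.25 on the log2 scale (adjusted p = 5.86e-04), and Igfbp3, another, had 60.6, 48.8 and 45.5 CPM in OCY-EV+ANTA, 43.7, 46.2 and 40.6 CPM in OCY-EV+ANTA-NC and 44.0, 43.1 and 40.3 CPM in Veh. The rise of Igfbp3 (0.29, adjusted p = 0.0328) was lost without any 1 library but OCY-EV+ANTA 3, and OCY-EV+ANTA 1 stood above the other 2 of its group.

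Transcripts of mitochondrial DNA had 3 calls among 12 tested genes, all lower, beside 3.46% of all genes lower, with a median of -0.13. The 3 were mt-Co2 at -0.18 (adjusted p = 0.0348), mt-Co3 at -0.23 (adjusted p = 0.0348) and mt-Cytb at -0.17 (adjusted p = 0.0334). mt-Co1, of the same respiratory complex as the first 2, had a log2 fold change of 0.00 (adjusted p = 0.964). All 3 calls were lost when the trend on GC content and length was removed, in limma on log2(FPKM + 1) and without OCY-EV+ANTA 3, and at least 1 of them without each other library except OCY-EV+ANTA 1. Nuclear copies of mitochondrial DNA can share these reads. For mt-Co2 and mt-Co3 OCY-EV+ANTA lay close to OCY-EV+ANTA-NC, with differences of -0.01 (adjusted p = 0.935) and -0.06 (adjusted p = 0.598). Other members differed: against OCY-EV+ANTA-NC, 1 of the 12 was called higher and 3 lower (all genes: 7.59% higher, 7.09% lower). Of 36 nuclear genes of the respiratory chain, Cox4i1 and Cox7a2 fell by 0.13 and 0.17 (adjusted p = 0.0432 and 0.0432), and both were lost when that trend was removed and without any 1 library but OCY-EV+ANTA 1.

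Circadian clock genes had 4 calls among 16 tested, all higher, beside 3.06% of all genes higher, with a median of 0.13. Per1, a repressor of the clock that also responds to stress and glucocorticoid signals, had 194, 199 and 206 CPM in OCY-EV+ANTA, 152, 157 and 166 CPM in OCY-EV+ANTA-NC and 172, 159 and 168 CPM in Veh. Its OCY-EV+ANTA libraries lay above the other 6 (log2 fold change 0.27, SE 0.04, adjusted p = 4.21e-04). Dbp, an output of the clock, rose by 0.35 (adjusted p = 0.0102) and Bhlhe40, a repressor, by 0.17 (adjusted p = 0.00923). Per3 rose by 0.24 (adjusted p = 0.0377), with OCY-EV+ANTA-NC at the same level (difference 0.00, adjusted p = 0.991). Dbp lost its call without OCY-EV+ANTA 3, Bhlhe40 without Veh 2 and Per3 without any 1 library but Veh 2. Collection times are not stated in the labels.

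The remaining lists held 1 to 3 calls each, beside 3.06% of all genes higher and 3.46% lower. Splicing factors had 3 of 24 lower, Arglu1 at -0.21 (adjusted p = 0.0131), Srsf2 at -0.20 (adjusted p = 0.0194) and Srsf6 at -0.16 (adjusted p = 0.0236), and 25.3% of the exon bases of Srsf2 overlap a gene on the opposite strand. Arglu1 averaged 119 ± 8.97 CPM in OCY-EV+ANTA, 185 ± 8.41 CPM in OCY-EV+ANTA-NC and 138 ± 1.601 CPM in Veh (SD, n = 3), so the groups with vesicles lay on opposite sides of Veh. Glycolysis had 2 of 17 higher, Gapdh at 0.15 (adjusted p = 0.0138) and Aldoa at 0.10 (adjusted p = 0.0382), and the hypoxia list 2 of 12, Kdm3a at 0.14 (adjusted p = 0.0326) and Hif1a at 0.13 (adjusted p = 0.0443). Cytosolic ribosomal proteins had 2 of 77 higher, Rpl12 at 0.12 (adjusted p = 0.00581) and Rps27a at 0.09 (adjusted p = 0.0464), with a median of 0.03. Heat shock genes had 1 of 12, Hsp90ab1 at 0.09 (adjusted p = 0.0431). Of these genes, Rpl12 alone kept its call without any 1 library, and the others lost it without OCY-EV+ANTA 2. Arglu1 also lost it without Veh 3, Gapdh without Veh 2, and the rest without either of these Veh libraries. With library size in place of TMM, 1 ribosomal protein gene was called higher, and the highest count under another alternative was 16.

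**Figure D5:**
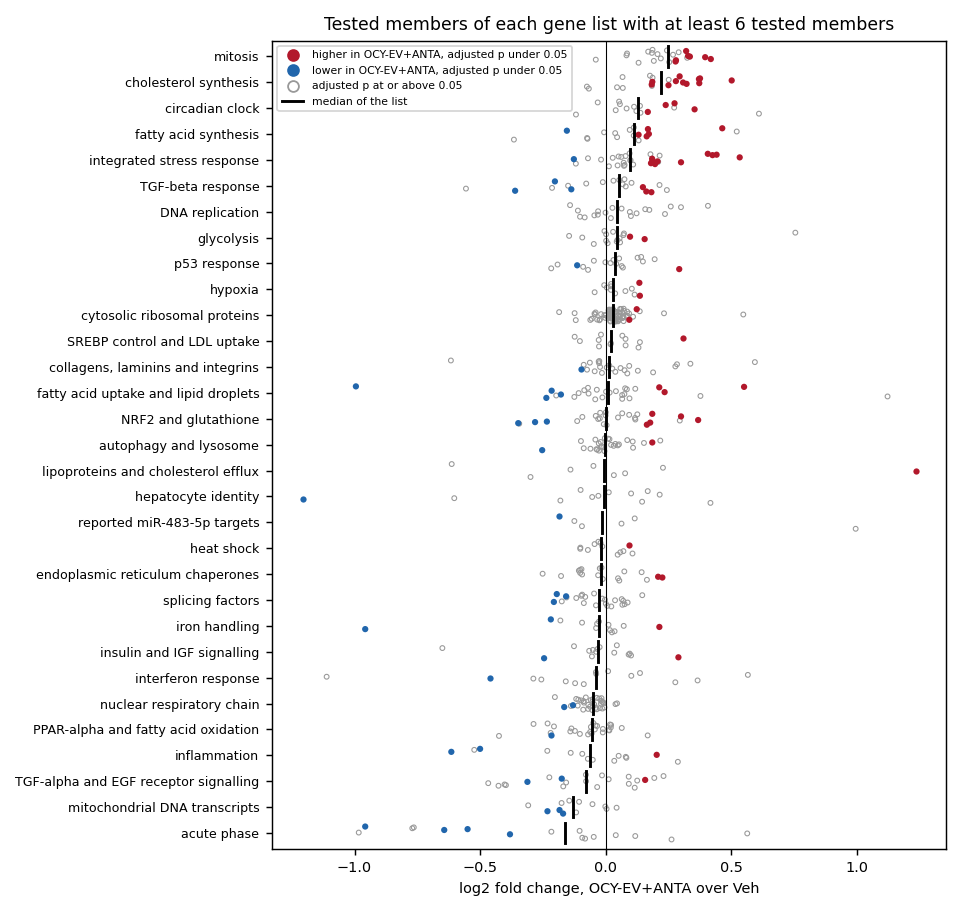
Log2 fold change of OCY-EV+ANTA over Veh of every tested member of the gene lists with at least 6 tested members, ordered by their median (black bar). Red points were called higher, blue points called lower and open points not called; mitosis and cholesterol synthesis have the highest medians (0.25 and 0.22) and acute phase the lowest (-0.16).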

How the data were processed

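RNA of AML12 cells was sequenced in 9 libraries. The authors deposited counts per gene and FPKM (counts per transcript length and library total); counting used HTSeq and mm10, per the submitters' processing notes. Aligner, annotation, versions and strand setting: not given in the sources used here. Deposited FPKM equalled scaled counts, within 0.001 base of transcript length, for 16770 genes with a count. Counts were tested in R 4.3.3 with edgeR 4.0.16 (filterByExpr with smallest count 10 and smallest total 15, TMM, glmQLFit and glmQLFTest, 1 coefficient per group over 9 libraries, Benjamini-Hochberg adjusted p under 0.05), after a test on simulated data. Alternatives used DESeq2 1.42.0, limma 3.58.1 on log2(FPKM + 1), library size, no filter, 6 libraries, GC and length offsets, a replicate block and libraries left out. CPM are counts over the library total. Libraries of a group differed by at least 2.18 chi-square per gene, so all were kept. Named were the 12 largest called rises and 12 largest called falls (at least 2 CPM on average, no overlap between groups; predicted genes and pseudogenes left out), up to 6 called genes of each list by smallest adjusted p (2 uncalled ones otherwise), Igf2 and Alb. A few list members are counted but not reported here by name. The comparison, members and lists were chosen with earlier results of these data known. Positions are from GENCODE M21 (GRCm38), where 21851 identifiers matched. Of 120 named genes, 32 share exon bases with an opposite-strand gene.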

Additional observations from a re-analysis of the deposited data

How the results depend on the processing

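Against the 754 calls in OCY-EV+ANTA over Veh, counts stayed within 1.5 times under DESeq2 (702), library size (781), no filter on low counts (1037), the 6 libraries alone (768), offsets for GC content and length (822), and limma on log2(FPKM + 1) and log2(FPKM + 0.1) (532 each). In limma, 188 and 184 were higher. A fold of at least 1.5 left 44, 22 in each direction. Leaving out 1 library gave 322 (without Veh 2) to 872 calls (without OCY-EV+ANTA 1), 136 to 418 higher and 186 to 454 lower. Leaving out 1 number in every group, which leaves 2 libraries a group, gave 130 calls (48 higher, 82 lower) without number 2, 162 (76 higher, 86 lower) without number 3 and 990 (497 higher, 493 lower) without number 1. The labels state no meaning for the shared replicate numbers, and same-numbered libraries did not all deviate together beyond a correlation of 0.1. Deviations of libraries 1, 2 and 3 correlated at 0.16, 0.09 and 0.03 between OCY-EV+ANTA and Veh, and at 0.24, 0.12 and 0.09 between OCY-EV+ANTA and OCY-EV+ANTA-NC. The libraries numbered 1 did so in every pair of groups (0.16 to 0.24). Veh 3 correlated better with OCY-EV+ANTA 2 (0.07) than with OCY-EV+ANTA 3. A replicate block gave 1446 calls (714 higher, 732 lower), and with the GC and length offsets 1463 (754 higher, 709 lower). Higher calls under these 2 fits were 15 and 16 in mitosis and 13 and 16 in the integrated stress response. Direction turned only in Des and Stab2, which were not called. Without 1 library, Des ranged from -0.17 to 0.11 on the log2 scale (0.02 without Veh 2) and Stab2 from -0.13 to 0.54. Without replicate 3 of every group Des was 0.16 and Stab2 -0.26. Of 109 named genes that were called, 52 kept the call without any single library and 57 lost it at least once; the cause was not tested. At these depths, 3 counts correspond to 0.138 to 0.173 CPM.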
